A study of Mus musculus with 6 samples.

Results

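The genes that make cholesterol and fatty acids, the regulators that set their level and the liver X receptor branch that answers to sterols were followed in TM4 cells, a single established mouse line described in the labels as testicular somatic and widely used as a model of Sertoli cells. The 38 genes were taken by name: 18 enzymes of the sterol pathway, 6 genes that sense, regulate or carry sterols, 9 genes of fatty acid synthesis and desaturation, and 5 genes of the liver X receptors and their targets. Of these, 37 had a probe, 61 probes in all out of 56605, and 34 were measured well enough to test, among 21480 named genes and unnamed transcripts tested in all. The cells were either left without 4-nitrophenol (PNP) for 24 h or given 10 µM for 24 h. 4-Nitrophenol is a phenol of diesel exhaust, and some organophosphate insecticides break down to it. There were 3 samples in each group, with 1 single-colour array apiece. Slide 1 held untreated arrays only and slide 3 treated arrays only, while slide 2 held both kinds. Between slides 1 and 3 a difference by treatment cannot be told apart from a difference by slide, even where the groups do not overlap. No agent other than 4-nitrophenol is named in the labels, which do not say what the untreated cells received in its place. Nor do they say that the replicates were separate cultures. The p-values therefore rest on a spread that may be technical only, and the small number of arrays limits the precision.

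Cholesterol is built in the endoplasmic reticulum from acetyl-CoA, first through mevalonate and the isoprenoids, then by closure of squalene into a ring that a chain of oxidases, reductases and isomerases trims. Its supply is sensed by SCAP, which carries the SREBP transcription factors (encoded by Srebf1 and Srebf2) to the Golgi for activation when sterols are low, and is held back by the INSIG proteins when they are high. SREBPs switch on the enzyme genes through sterol regulatory elements, usually beside CCAAT and GC boxes bound by NF-Y and Sp1. Liver X receptors respond to oxidised sterols and raise cholesterol efflux and Srebf1. In the seminiferous tubule, Sertoli cells handle lipid for the germ cells and make cholesterol themselves.

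Promoters from RefSeq (build GRCm38.p6, 250 bases before to 50 after the start) were found for 30 of the 38 genes, 39 promoters in all, and letters were searched on both strands. CCAAT stood in the promoters of 14 of the 15 sterol enzymes with an entry, the exception being Acat2, and in 77.8% of their 18 promoters, against 37.4% of all 32851 promoters of the table. GGGCGG, a GC box, was in 83.3% of the sterol enzyme promoters and in 35.7% of all. Among the 6 genes of fatty acid synthesis with an entry, 2 had CCAAT, Fasn and Acly. The letters TCACNCCAC, one form of the sterol regulatory element, were in the promoter of 1 member, Hmgcs1, and in 1.24% of all promoters. CACGTG, the E-box, was in 16.7% of the sterol enzyme promoters and in 7.15% of all. A match describes these letters in this window and shows neither binding nor its absence.

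The 150 bases just before the start of 6 genes are shown because they span the pathways described: the HMG-CoA synthase gene with its sterol element, 4 enzymes along the sterol chain including the one with the lowest fold change (Dhcr7), and fatty acid synthase, the member with the smallest p. Each is read 5′ to 3′ along the gene, with CCAAT (or ATTGG, the same letters on the opposite strand) and the sterol regulatory element in capitals.
Hmgcs1 (chr13:119690201-119690350, plus strand): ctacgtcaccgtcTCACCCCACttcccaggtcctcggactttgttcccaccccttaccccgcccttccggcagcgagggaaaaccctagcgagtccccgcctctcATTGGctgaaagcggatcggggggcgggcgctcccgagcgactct
Mvk (chr5:114444119-114444268, plus strand): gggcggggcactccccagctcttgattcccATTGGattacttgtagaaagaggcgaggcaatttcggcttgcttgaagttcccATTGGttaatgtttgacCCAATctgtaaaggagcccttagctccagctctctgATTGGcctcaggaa
Cyp51 (chr5:4104698-4104847, minus strand): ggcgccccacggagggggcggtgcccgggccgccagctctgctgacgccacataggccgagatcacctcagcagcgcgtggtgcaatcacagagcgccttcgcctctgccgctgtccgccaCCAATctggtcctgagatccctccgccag
Msmo1 (chr8:64733579-64733728, minus strand): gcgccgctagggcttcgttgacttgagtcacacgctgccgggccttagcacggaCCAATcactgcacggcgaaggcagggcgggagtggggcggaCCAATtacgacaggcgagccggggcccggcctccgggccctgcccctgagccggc
Dhcr7 (chr7:143830064-143830213, plus strand): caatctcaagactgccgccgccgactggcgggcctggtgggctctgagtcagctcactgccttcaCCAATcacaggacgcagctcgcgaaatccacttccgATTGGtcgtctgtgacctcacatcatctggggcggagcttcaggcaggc
Fasn (chr11:120824548-120824697, minus strand): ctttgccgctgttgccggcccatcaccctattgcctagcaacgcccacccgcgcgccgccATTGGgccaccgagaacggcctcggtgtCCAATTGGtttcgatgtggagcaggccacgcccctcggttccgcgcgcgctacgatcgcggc
In Hmgcs1 the sterol element TCACCCCAC ends 128 bases before the start and 1 CCAAT match lies downstream of it, on the opposite strand. Mvk held 4 CCAAT matches in this stretch and Fasn 3, of which a pair overlaps because CCAATTGG reads as CCAAT on both strands. Msmo1 held 2 and Cyp51 held 1. Dhcr7 has 3 promoters in the table, and the 1 shown, with 2 matches, is the only one of them with CCAAT.

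No gene of these pathways passed the test. Levels given here are log2 of an array's processed signal minus that array's 75th percentile, and a difference is 4-nitrophenol minus untreated on that scale. With limma and Benjamini-Hochberg adjustment over all units, 0 of the 34 members had an adjusted p under 0.05, and so had 0% of all units. The lowest adjusted p of a member was 0.501. At an unadjusted p under 0.05 there was 1 member lower, Fasn, where 3.08% of all units were lower, and 0 members higher, where 6.86% were. Arrays of the groups did not overlap for 3 members that were lower (Dhcr7, Fasn and Scd2; 7.83% of all units) and 1 that was higher (Stard4; 7.6% of all units). Among named genes alone, 2.9% were lower and 3.64% higher at that unadjusted p. Groups did not overlap for 8.77% of them on the lower side and 5.01% on the higher. The members' counts are near these named-gene shares, so they are no result about the members. The fold change was negative for 25 members and positive for 9, with a median of -0.19, beside a median of -0.09 over 13538 named genes, of which 62.2% were negative, and -0.04 over all units.

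**Figure D1:**
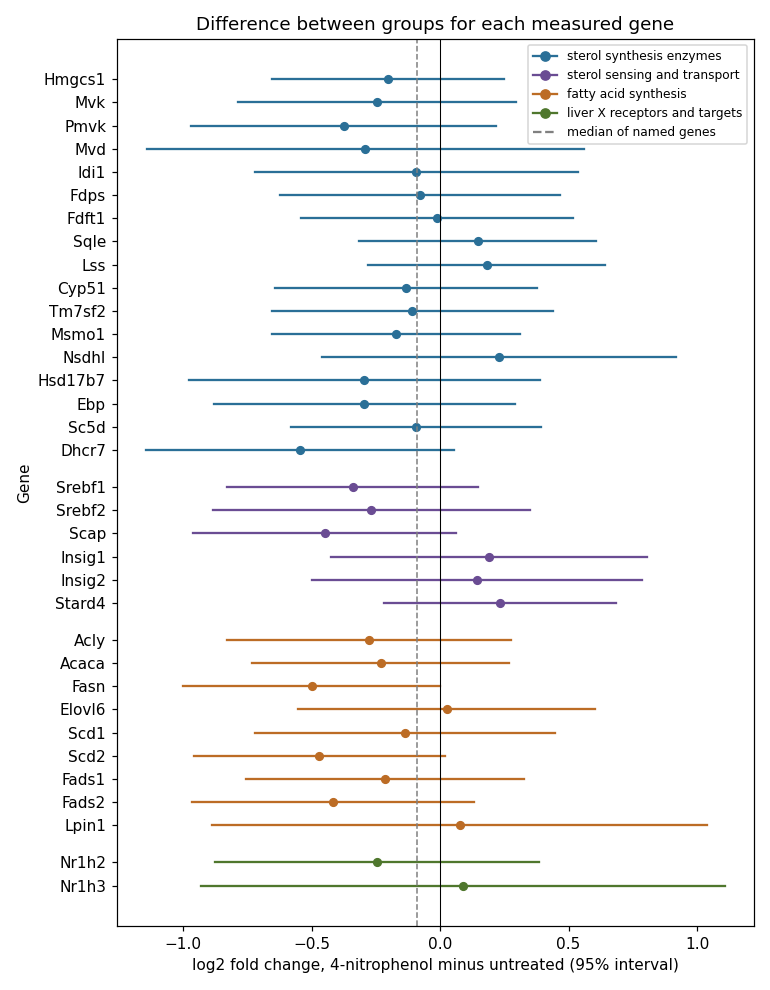
Log2 fold change of each measured gene, 4-nitrophenol minus untreated (points), with its 95% confidence interval from limma (lines), 3 arrays per group. The interval of Fasn ends at -0.0018, all others cross 0, and the dashed line is the median of named genes.

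The sterol enzymes were described from the start of the chain. Of 17 measured, 14 had a negative and 3 a positive fold change, from -0.55 to 0.23, with a median of -0.13. None passed the adjusted or the unadjusted threshold (limma). Hmgcs1 encodes the cytosolic synthase that makes HMG-CoA. Its level was 4.24, 4.39 and 4.04 in untreated replicates 1, 2 and 3 and 4.07, 3.92 and 4.06 with 4-nitrophenol. The treated arrays lay close together at the lower end of the untreated range, 2 of them above untreated replicate 3, so the groups overlapped. The difference was -0.21 ± 0.20 (SE, n = 3 per group; limma, adjusted p = 0.744).

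The mevalonate kinases and the decarboxylase that follow had differences of -0.25 ± 0.24 for Mvk, -0.38 ± 0.26 for Pmvk and -0.29 ± 0.37 for Mvd (SE). Pmvk was highest on untreated replicates 1 and 2, at 4.68 and 4.76, and untreated replicate 3, at 4.00, sat with the treated arrays, which ran from 3.95 to 4.36. Idi1, the isomerase that makes the active isoprenoid pair, and Fdps, which joins isoprenoids to farnesyl diphosphate, were at -0.09 and -0.08. Fdft1, squalene synthase, was at -0.01. None of these passed either threshold (limma).

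Sqle encodes squalene epoxidase, a rate-setting oxygenase of the later pathway. It read 3.99, 3.98 and 3.89 in untreated cells and 3.85, 4.16 and 4.28 with 4-nitrophenol. Untreated arrays were tight (SD 0.05), while 1 treated array lay below all of them and 2 above, giving 0.15 ± 0.20 (limma, adjusted p = 0.83). Lss, which closes the ring to lanosterol, was at 0.18 ± 0.20, and Nsdhl, a sterol dehydrogenase, at 0.23 ± 0.30; with Sqle these are the 3 enzymes with a positive fold change.

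Nsdhl belongs with the enzymes that trim lanosterol, none of which passed either threshold (limma). Cyp51, the 14α-demethylase, was at -0.13, Tm7sf2, a sterol reductase, at -0.11, Msmo1, the methyl sterol oxidase, at -0.17, Hsd17b7, a ketosteroid reductase of the pathway, at -0.30, Ebp, the sterol isomerase, at -0.30, and Sc5d, the desaturase, at -0.09. Their adjusted p ran from 0.716 for Ebp to 0.904 for Sc5d (limma).

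Dhcr7, the reductase of the last step, had the lowest fold change of all 34 members. Its level was -0.40, -0.63 and -0.53 in untreated cells and -0.67, -1.58 and -0.95 with 4-nitrophenol. All treated arrays were below all untreated ones, but replicate 1 by only a narrow margin, and the treated spread (SD 0.47) was wider than the untreated (SD 0.12). The difference of -0.55 ± 0.26 did not pass (limma, unadjusted p = 0.0688, adjusted p = 0.533). It rested largely on PNP replicate 2: without that array it was -0.29. Each slide carried arrays at 2 positions: on position 1 alone the difference was -1.11 and on position 2 -0.18. On slide 2 alone, with 1 array of each group, the difference was -0.13.

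Acat2, the thiolase that opens the pathway, had no probe matched by accession and was not analysed here.

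Of the 6 genes that sense or carry sterols, 3 were negative, the activators Srebf1, Srebf2 and Scap, and 3 positive, with a median of -0.06. None passed either threshold (limma). Srebf1 read 3.69, 3.88 and 3.55 in untreated cells and 3.30, 3.17 and 3.63 treated, with PNP replicate 3 inside the untreated range, a difference of -0.34 ± 0.21 (limma, adjusted p = 0.622). Srebf2 read 2.89, 3.05 and 2.44 untreated and 2.31, 2.28 and 2.98 treated. Untreated replicate 3 was among the treated arrays and PNP replicate 3 among the untreated, and the difference was -0.27 ± 0.27 (limma, adjusted p = 0.754). Scap, their escort, read 3.62, 3.60 and 3.22 untreated and 2.76, 3.11 and 3.23 treated. It overlapped by 1 array, PNP replicate 3, which lay just above untreated replicate 3, and differed by -0.45 ± 0.22 (limma, unadjusted p = 0.0779, adjusted p = 0.539).

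The retention proteins INSIG1 and INSIG2 keep SCAP in the endoplasmic reticulum. Insig1 read 1.57, 2.45 and 1.92 untreated and 2.33, 1.90 and 2.28 treated. The treated arrays lay inside the wide untreated range, at 0.19 ± 0.27 (limma, adjusted p = 0.833). Insig2 read -0.42, -0.21 and 0.15 untreated and 0.51, -0.35 and -0.20 treated, where PNP replicate 1 stood alone at the top. Its difference was 0.14 ± 0.28 (limma, adjusted p = 0.883). Both are counted as positive, but Insig1 changed sign in 2 and Insig2 in 3 of the 22 alternative analyses. No direction is read for them or for the other members that changed sign.

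Stard4, a soluble carrier of cholesterol between membranes, was the only member with separate groups on the higher side. It read 0.23, 0.39 and 0.31 untreated and 0.48, 0.40 and 0.75 treated. The lowest treated array was hardly above the highest untreated one, and the difference of 0.23 ± 0.20 was about the size of its error (limma, unadjusted p = 0.274, adjusted p = 0.712). Its value came from the brighter of 2 probes; the other gave -0.09.

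**Figure D2:**
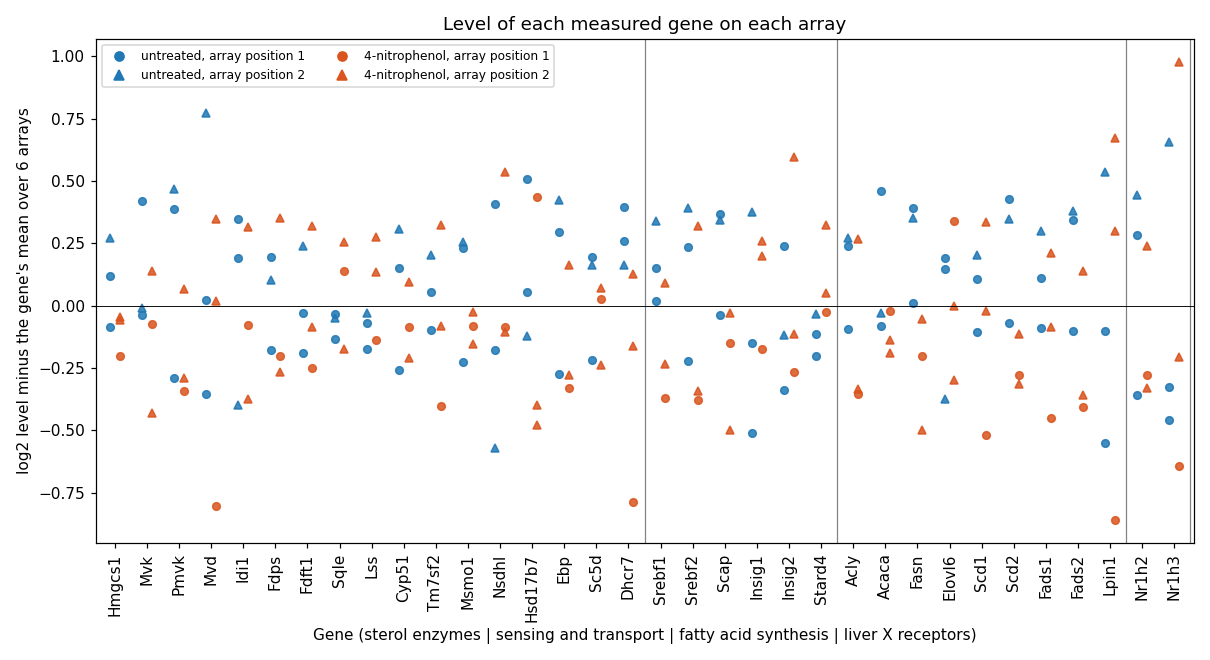
Log2 level of each measured gene on each of the 6 arrays minus that gene's mean over the arrays, with untreated in blue, 4-nitrophenol in orange, circles for array position 1 and triangles for array position 2. Fasn, Scd2, Dhcr7 and Stard4 are the genes whose groups do not overlap, and Dhcr7 owes its lowest point, at array position 1, to PNP replicate 2.

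Among the 9 genes of fatty acid synthesis, 7 were negative and 2 positive, from -0.50 to 0.08, with a median of -0.23. Acly, the ATP citrate lyase that supplies cytosolic acetyl-CoA, read 2.42, 2.45 and 2.09 untreated and 1.85, 1.83 and 2.45 treated, where PNP replicate 3 matched the untreated arrays. Its difference was -0.28 ± 0.24 (limma, adjusted p = 0.717). Acaca, the acetyl-CoA carboxylase that commits carbon to fatty acids, read 4.49, 4.01 and 3.95 untreated and 3.90, 4.01 and 3.85 treated. Untreated replicate 1 was high and the rest lay together, at -0.23 ± 0.22 (limma, adjusted p = 0.739).

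Fasn, fatty acid synthase, was the member with the smallest p. It read 4.69, 4.65 and 4.31 untreated and 3.80, 4.10 and 4.25 treated, so every treated array was below every untreated one, PNP replicate 3 by a narrow margin. The treated level was 0.707 times the untreated, a difference of -0.50 ± 0.22 (SE, n = 3 per group; limma, unadjusted p = 0.0493, adjusted p = 0.501). With separate groups, its sign could not change on leaving out an array or on taking 1 position or slide 2 alone. Slide 2 was the only slide with both groups, and there the difference was -0.51. Within array positions 1 and 2 the difference was -0.40 and -0.62, and it ran from -0.63 to -0.38 over all 22 alternatives. None of them passed the adjusted threshold, and the lowest adjusted p was 0.0605, with array weights that lean on 1 untreated array (limma).

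The desaturases came next. Scd2, the stearoyl-CoA desaturase of many tissues outside liver, read 5.16, 5.08 and 4.67 untreated and 4.42, 4.45 and 4.62 treated. Its groups were separate by the small gap between untreated replicate 3 and PNP replicate 3, and the difference was -0.47 ± 0.21 (limma, unadjusted p = 0.0573, adjusted p = 0.519). Within array positions it was -0.46 and -0.56, and on slide 2 alone, with 1 array of each group, it was -0.25. Its sister Scd1 read 2.17, 2.48 and 2.38 untreated and 2.61, 1.76 and 2.25 treated, with the highest and the lowest array both treated, and a difference of -0.14 ± 0.26 (limma, adjusted p = 0.877). The fatty acyl desaturases of polyunsaturated fatty acids, Fads1 and Fads2, were at -0.22 and -0.42 ± 0.24, the latter with unadjusted p = 0.12 (limma). Elovl6, the elongase of palmitate, was at 0.02. Lpin1, a phosphatidate phosphatase of triglyceride synthesis, was at 0.08 ± 0.42, the value that changed sign in the most alternatives, 11 of 22.

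Of the liver X receptor branch, both receptors were measured. Nr1h2, the receptor of most tissues, read 4.64, 4.79 and 3.99 untreated and 4.02, 4.07 and 4.59 treated, with untreated replicate 3 below all treated arrays, a difference of -0.25 ± 0.28 (limma, adjusted p = 0.781). Nr1h3, the receptor of liver, fat and macrophages, was dim, at -4.03, -3.05 and -4.16 untreated and -2.72, -4.34 and -3.91 treated, and well above background on 2 of 3 untreated and all 3 treated arrays. Its difference was 0.09 ± 0.45 (SE), and a second probe, with readings from -4.31 to -3.20, gave 0.56 with overlapping groups. Both probes entered only through the treated group, so no test of either is read here. Nr1h3 is still counted among the 34 members and among the 9 with a positive fold change.

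Abca1, Abcg1 and Mylip, the targets listed with these receptors, gave no comparison. Abca1, the pump that loads cholesterol on lipoproteins, had 2 probes, and on all 6 arrays both were not well above background. The first read -6.36, -6.42 and -6.06 untreated and -6.42, -7.06 and -6.13 treated, and the second ran from -7.03 to -5.81. Abcg1, a related pump, read -6.88, -6.44 and -6.05 untreated and -6.42, -6.94 and -6.87 treated and was likewise not well above background. The lowest signals of any probe well above background lay between -4.85 and -3.86 across the arrays, so these readings are only bounds. Mylip, a ligase that marks lipoprotein receptors for breakdown, was above background on 1 array, PNP replicate 2, at -2.56, with the other arrays between -6.85 and -6.01.

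Medians over the genes of a pathway did not split by treatment on every array. For each gene the mean over 6 arrays was taken off, and the median over the sterol enzymes was then 0.19, 0.16 and -0.17 on untreated replicates 1, 2 and 3 and -0.15, -0.14 and 0.14 on PNP replicates 1, 2 and 3. Untreated replicate 3 stood with the first pair of treated arrays, and PNP replicate 3 with the first pair of untreated ones. Of these, untreated replicate 3 and PNP replicate 1, at -0.17 and -0.15, lay on the same slide, slide 2. The fatty acid genes gave 0.24, 0.30 and -0.08 untreated and -0.14, -0.35 and -0.02 treated, so untreated replicate 3 fell between PNP replicates 1 and 3. All named genes moved the same way in smaller steps, from -0.07 to 0.10. PNP replicate 2 was the lowest array for 15 of the 34 members, where it was lowest for 20.6% of all units, and untreated replicate 2 was the highest for 13, where the share was 25.5%.

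**Figure D3:**
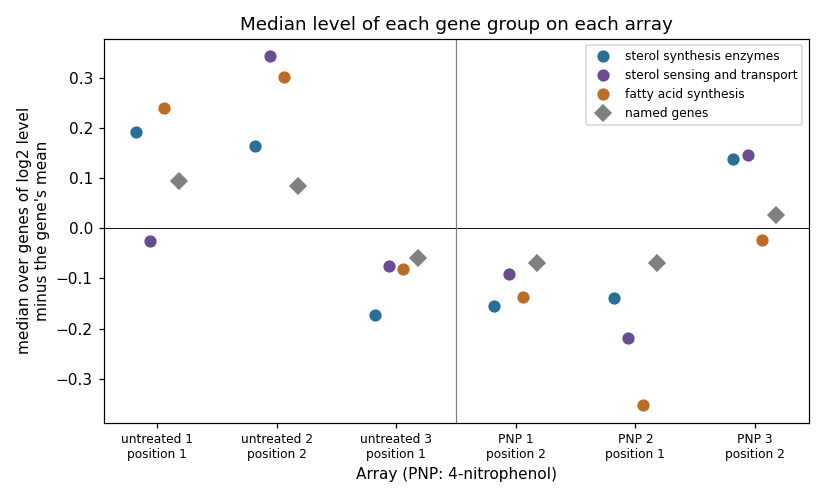
Median over the genes of each group of the log2 level minus the gene's mean, for each array (x axis, with its position on the slide). Untreated replicate 3, at -0.17 for the sterol enzymes, sits among the treated arrays, and PNP replicate 3, at 0.14, among the untreated.

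For some members the arrays differed more by their place on the slide than by treatment. Untreated replicates 1 and 3 and PNP replicate 2 lay at position 1, and the other arrays at position 2. Mvd was higher on position 2 by 0.96, Lpin1 by 1.10 and Nr1h3 by 1.04. Position 2 arrays were all above position 1 for 4 members (Insig1, Lpin1, Lss and Nr1h3; 11.5% of all units) and all below for 2 (Elovl6 and Hsd17b7; 10.9% of all units), which is near the background. Within position 1 and within position 2, where 1 of the groups holds a single array assumed to vary like the others, the median of the sterol enzymes was -0.21 and -0.18 and that of the fatty acid genes -0.46 and -0.24. The part of array position in the members' values was not tested beyond these values.

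Probes of one gene did not always follow each other. Of the 61 probes 56 passed, and 18 members had at least 2 of them. The brightest probe of Mvk gave -0.25 ± 0.24, with readings from 4.55 to 5.40. A dimmer probe on another of its transcripts read 3.12, 3.01 and 2.94 untreated and 2.09, 2.31 and 2.52 treated. On that probe the groups were separate and the difference was -0.71 ± 0.20 (SE). It had the smallest p of any member probe and did not pass (limma, unadjusted p = 0.00714, adjusted p = 0.348 over all passing probes). For Lss the probes gave 0.18, -0.50 with separate groups and 0.16.

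Slide 2, which carried untreated replicate 3 and PNP replicate 1, set some probes apart. Such probes were looked for after the values had been seen. The second Stard4 probe read 1.69 and 1.67 on these arrays and between -0.52 and -0.30 on the other 4. The dimmest Lss probe read 2.23 and 2.06 there and from 0.01 to 0.98 elsewhere. With a probe of Insig2 and one of Acly these make 4 of 56 member probes, beside 1.29% of all passing probes. On such a probe both slide 2 arrays were above the other 4 and at least 2-fold higher on average. Slide 2 held 1 array of each group, so such a probe is high in both groups. None of these 4 stands for its gene, but smaller offsets of this kind are found in probes that do. Over all 56 member probes, slide 2 was above the other 4 arrays for 9, a larger share than the 7.72% of all passing probes. It was below for 6, near the 10.9% of all passing probes. Among the probes used above, Idi1 and Insig2 were higher on slide 2 by 0.50 and 0.63. Sqle, Cyp51, Msmo1, Sc5d and Nr1h2 were lower there, with differences from -0.51 to -0.23.

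**Figure D4:**
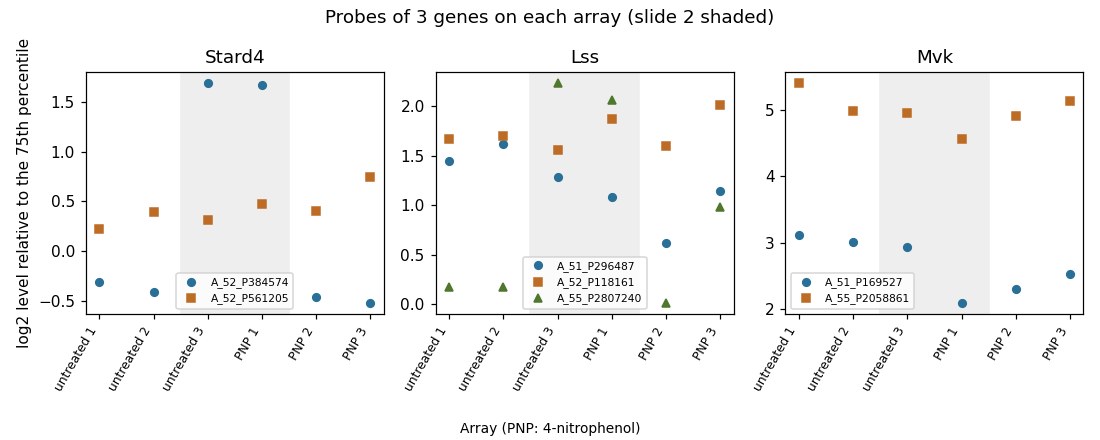
Log2 level of every probe of Stard4, Lss and Mvk on each array, one marker shape per probe, with the slide 2 arrays shaded. One probe of Stard4 and one of Lss stand high on slide 2 alone, while the lower Mvk probe is at 2.52 or less on all treated arrays and at 2.94 or more on all untreated ones.

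Genes of the same pathways outside the 38 were taken from fixed lists. Of 26 other sterol genes 24 were measured, 17 negative and 7 positive, with a median of -0.15, and 0 had an unadjusted p under 0.05 in limma. The smallest p values belonged to Scarb1, the receptor for high density lipoprotein, at -0.53 (adjusted p = 0.521), Aacs, which activates acetoacetate, at -0.60, and Stard5, a sterol carrier, at -0.49. Of 30 other lipid synthesis genes 28 were measured, with a median of -0.21, and 2 lower and 1 higher had an unadjusted p under 0.05 (3.08% and 6.86% of all units), which is no result about the list. These were Dgat2, an enzyme of triglyceride synthesis, at -0.50 (limma, unadjusted p = 0.0387, adjusted p = 0.479), and the acyltransferases Agpat3 at 0.68 and Agpat2 at -0.53. Of 14 other genes of the liver X receptor pathway 10 were measured and 1 was lower at an unadjusted p under 0.05, where 3.08% of all units were. That gene was Rxra, the partner of the liver X receptors on DNA, at -0.69 (limma, unadjusted p = 0.0393, adjusted p = 0.48). Pltp, a phospholipid transfer protein, and Lpcat3, a membrane remodelling enzyme, followed at 0.37 and -0.32. None of these genes passed after adjustment.

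The labelled cell type was checked on markers. Of 14 Sertoli markers 9 were well above background on all arrays, Sox9, Wt1, Gata4, Dmrt1 and Nr5a1 among them, while Amh, Cldn11 and Fshr were not on any. None of 6 Leydig markers with a probe, all 4 peritubular myoid markers and 2 of 5 macrophage markers (Csf1r and Cd68, without Adgre1, Ptprc or Cx3cr1) were above background on all arrays of both groups. None of 4 endothelial markers was, and 1 germ cell marker (Sycp3) was. The summed level of the measured Sertoli markers ran from 3.05 to 3.31 in untreated and from 2.58 to 2.91 in treated cells (log2). It was thus lower on every treated array, as were 7.83% of all units. The summed level of the myoid markers ran from 3.85 to 4.00 and from 3.67 to 4.05 and overlapped. Both sums are of unlogged levels, so the brightest markers weigh most. They do not show that the markers of a list moved together. The part of such shifts in the lipid genes was not tested. In a bulk sample, fewer cells of a type and less RNA per cell cannot be told apart.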

How the data were processed

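RNA from 6 TM4 samples was amplified and dyed with Cy3 for single-colour arrays (per the labels' protocols). The deposited intensity values are Agilent processed signals. The file headers give Feature Extraction 11.5.1.1 as the software, and the submitters' processing notes give 10.7. The signals are background-subtracted and not scaled between arrays. The authors' deposited log2 values have an equal median of 4.74 in every column. Their scale is read from the values, which track each array with a correlation of at least 0.998 across probes, and their normalization is not given in the sources used here. Between 47.7% and 57.6% of an array's probes read well above background, with 0 saturated spots.

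Outlier spots were dropped, log2 signals were averaged over a probe's spots, and the array's 75th percentile was taken off. Probes whose spots were all outliers on an array (195) were left out. Probes were kept if all 3 arrays of a group, either one, read them well above background (28208 probes), and the brightest stood for its gene. Names and promoters came from RefSeq tables of GRCm38.p6, which is not the build of the array design. By accession, 33767 probes were named and 22838 were not. Groups and replicate numbers come from the labels. The test was limma's moderated linear model (version 3.58.1, R 4.3.3), two-sided, with p-values adjusted by Benjamini-Hochberg across 21480 units at a threshold of 0.05. Files were read with data.table (version 1.17.8), and statmod 1.5.0 supported the random block. The fit was also run on simulated data with independent noise on each array. That simulation held no slide or position effect, so it does not bear on such effects in these data.

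The 22 alternatives changed background correction (normexp, offset 50, on the median spot signal), scaling, filter, probe choice, values, variance, weights, slide, array position, replicate number and the arrays included. Values on each array are given for the rate-setting and regulatory members, for those with an unadjusted p under 0.05 and for those with separate groups. The members and lists were chosen with earlier results of these data known. A further item of the marker list is not reported here.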

Additional observations from a re-analysis of the deposited data

How the results depend on the processing

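In all 22 alternatives 0 of the 34 members passed the adjusted threshold in limma, and the lowest adjusted p was 0.0568 (Scd2, array weights). The fold change had the same sign in every alternative for 13 members, 12 lower and 1 higher, and changed sign in at least 1 for the other 21. The alternatives reuse the same arrays, and 62.2% of named genes had a negative fold change in the main fit. The share of all units with an unchanged sign was not counted, so these counts are no result about the members. The number of negative members was 28 with median centring, which moved the median of all units from -0.04 to -0.15, 24 with the percentile over probes above background, and 19 with slide as a fixed block. The count of all units called was 1366 with array weights (9.11 for untreated replicate 1 and 0.466 to 0.798 for the others), 539 within array position 1, 78 within position 2 and 0 to 35 with 1 array left out (4 without untreated replicate 2, 35 without PNP replicate 1). Members at an unadjusted p under 0.05, 1 as reported, were 10 with array weights, 4 with array position as a block, 3 with median centring or a robust variance trend, and 2 with normexp, quantile normalization or the authors' values, where 30.3%, 13.7%, 12.3%, 10.1%, 8.13%, 10.7% and 10.6% of all units had such a p. They were 0 with the percentile over probes above background, no filter or the replicate block, where 10.7%, 6.01% and 6.35% of all units had such a p. With 1 array left out they were 0 to 4. They were 4 without untreated replicate 3 (11.2% of all units). They were 0 without untreated replicate 1 or 2 or PNP replicate 2 (5.17%, 12.4% and 9.2% of all units). Same-numbered arrays deviated apart (correlations -0.41, -0.55 and -0.41). Each such pair lay on different slides and at opposite array positions, so these values cannot tell whether the numbers pair the samples. The replicate block called 0 units. The median of the sensing genes was -0.27 within position 2 and that of the fatty acid genes -0.46 within position 1. That of the 2 measured liver X receptors was 0.73 with slide as a fixed block, which compares only the slide 2 arrays. This value came from the dim Nr1h3, at 1.44, while Nr1h2 was at 0.03, so it is not read as a shift of the receptors. Sensing genes had a median of 0.01 with the percentile over probes above background, 0.02 with slide as a fixed block and 0.08 without PNP replicate 2. The sterol enzyme median stayed negative in every alternative, from -0.29 without untreated replicate 3 to 0.00 with the fixed slide block, and the fatty acid median too, from -0.46 to -0.15. Probes near background, such as those of Abca1, Abcg1 and Mylip, give bounds only.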
